A study of Mus musculus with 5 samples.

Results

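Sostdc1 encodes a secreted antagonist of Wnt and BMP signals, and it was described here together with 9 genes of those pathways in follicular regulatory T (Tfr) cells. The members were the rows of the abundance tables with an Ensembl gene ID and 1 of 10 gene names, and all 10 were found among 57186 annotated genes. Sostdc1 was chosen by these same TPM values, as a gene higher in the knockout, so its values are a description with no test. Wnt3, Lrp5, Lrp6, Axin2, Ctnnb1, Bmpr1a, Bmpr2, Smad1 and Smad5 were listed around it by their roles.

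RNA was sequenced from Tfr cells of mouse spleen, regulatory CD4 T cells that make Foxp3 and dampen germinal centres from within the B cell follicle. They were sorted as live cells positive for CD4, Foxp3, CXCR5, PD-1 and ICOS, 21 days after imiquimod, a drug that activates TLR7. The WT group (3 libraries) came from Foxp3-GFP reporter mice and the Cebpa_KO group (2 libraries) from Foxp3-Cre Cebpa-flox/flox mice, in which Cre made from the Foxp3 locus deletes Cebpa (C/EBP alpha, a transcription factor). Both groups were treated, each library pooled cells of several mice, and ages were not stated in the labels used here. The comparison asked how Tfr cells lacking C/EBP alpha differ from those that have it.

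Wnt proteins bind Frizzled receptors together with LRP5 or LRP6. This halts the destruction complex, built on axin, so that beta-catenin (Ctnnb1) accumulates and acts with TCF and LEF factors, and Axin2 is a widely used feedback target. BMP ligands bind pairs of receptor kinases such as BMPR1A and BMPR2, which phosphorylate SMAD1 and SMAD5, and Id genes are common targets. Sostdc1 binds BMPs and also LRP5 and LRP6. In follicular T cell biology it is known as a product of a subset of follicular helper cells that favours Tfr differentiation, and Tcf7 and Lef1 are known to support follicular helper cells.

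Values are TPM (a transcript level corrected for length and library size) divided by a scale factor per library. Differences are Cebpa_KO minus WT on the log2(scaled TPM + 1) scale, which understates the change of low genes. A gene was tested if its TPM was at least 1 in at least 2 of the 5 libraries, which 16254 genes met, and it passed at a limma adjusted p under 0.05. The aligned depth was 6.76 to 7.08 gigabases per library. The targeted Cebpa stood at 12.8 to 17.7 in WT against 0.317 and 0.550 in Cebpa_KO. The sort marker Foxp3 stood at 83.0 to 107 in WT against 6.74 and 5.58 in Cebpa_KO, although both groups were sorted as Foxp3-positive. Xist was at most 0.0220 in WT and 11.4 and 10.7 in Cebpa_KO, while 4 genes of chromosome Y summed to 151 to 162 in WT against 0 and 0.0311 in Cebpa_KO. Sex, the Foxp3 allele and the Cebpa genotype therefore cannot be told apart in any difference below. WT replicate 3 stood apart from the other WT libraries in stress genes, whose 10 listed members summed to 833, 910 and 4192 in WT against 5141 and 5391 in Cebpa_KO.

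Promoter sequences of 7 of the 10 members were matched in RefSeq's GRCm38.p6 table by symbol, and 2 are shown. Wnt3 is the Wnt ligand measured in these cells and Axin2 the feedback target. Each window is the 250 bases before the annotated start, on the plus strand, and capitals mark a match to a C/EBP core (TTGCNNAA or, on the other strand, TTNNGCAA).
Wnt3 promoter, GRCm38.p6 chr11:103773925-103774174: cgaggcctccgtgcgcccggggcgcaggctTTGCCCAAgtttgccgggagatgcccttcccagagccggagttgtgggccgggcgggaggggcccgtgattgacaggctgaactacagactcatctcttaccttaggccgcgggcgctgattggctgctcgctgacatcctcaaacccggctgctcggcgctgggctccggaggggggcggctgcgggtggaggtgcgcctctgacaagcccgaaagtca
Axin2 promoter, GRCm38.p6 chr11:108920099-108920348: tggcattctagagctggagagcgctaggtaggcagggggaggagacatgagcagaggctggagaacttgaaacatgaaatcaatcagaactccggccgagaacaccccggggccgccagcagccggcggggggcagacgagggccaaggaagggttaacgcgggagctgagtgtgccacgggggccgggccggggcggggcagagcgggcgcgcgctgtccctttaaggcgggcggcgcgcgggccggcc
The match in Wnt3, TTGCCCAA, begins 220 bases before the start. Such a core is in 9.56% of the 32851 promoter windows of that length, and Wnt3 was the only member among the 7 matched to hold it. A TCF and LEF core (CTTTGAT or ATCAAAG) was in none of the members' 10 windows and in 3.21% of all. A BMP response core (GGCGCC) was in windows of Bmpr1a, Bmpr2, Ctnnb1 and Smad5, and in 9.59% of all. These are letter matches and were not tested for binding.

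Sostdc1 (ENSMUSG00000036169, mm39 chromosome 12, 36364138 to 36368451, plus strand) was the member with the widest gap between the groups. Its scaled TPM was 11.9, 10.7 and 16.8 in WT replicates 1, 2 and 3 and 204 and 181 in Cebpa_KO replicates 1 and 2. Both knockout libraries lay far above all WT libraries, and WT replicate 3 was the highest of the WT libraries. The means were 13.2 ± 3.21 (SD, n = 3) and 192 ± 16.4 (SD, n = 2), a ratio of 14.6. On the log2 scale the difference was 3.79 with a standard error of 0.20. Set against WT replicates 1 and 2 alone it was 3.97, and 3.44 if WT replicate 3 was the reference. By level, Sostdc1 ranked between 7468 and 8813 of the 16254 tested genes in the WT libraries and 911 and 1045 in the Cebpa_KO libraries. Its difference ranked 9 of all tested genes in the order from the largest rise to the largest fall.

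The Sostdc1 locus was well covered. Mean coverage per base was 34.7, 32.8 and 47.3 in WT and 614 and 533 in Cebpa_KO. No other annotated gene overlapped it. The loci assembled in each library without the annotation's names gave nearly the same unscaled TPM at this position, 11.1 to 16.5 in WT and 203 and 182 in Cebpa_KO. The nearest genes before it, Gm40392 and Lrrc72, were at 0.109 or less in every library. Ankmy2, further in that direction, was at 30.3 to 44.3 in WT against 34.4 and 30.0 in Cebpa_KO, so the groups overlapped. On the other side the nearest gene, Gm34215, was at 0.200 in WT replicate 3 and at 0 in the other libraries.

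**Figure D1:**
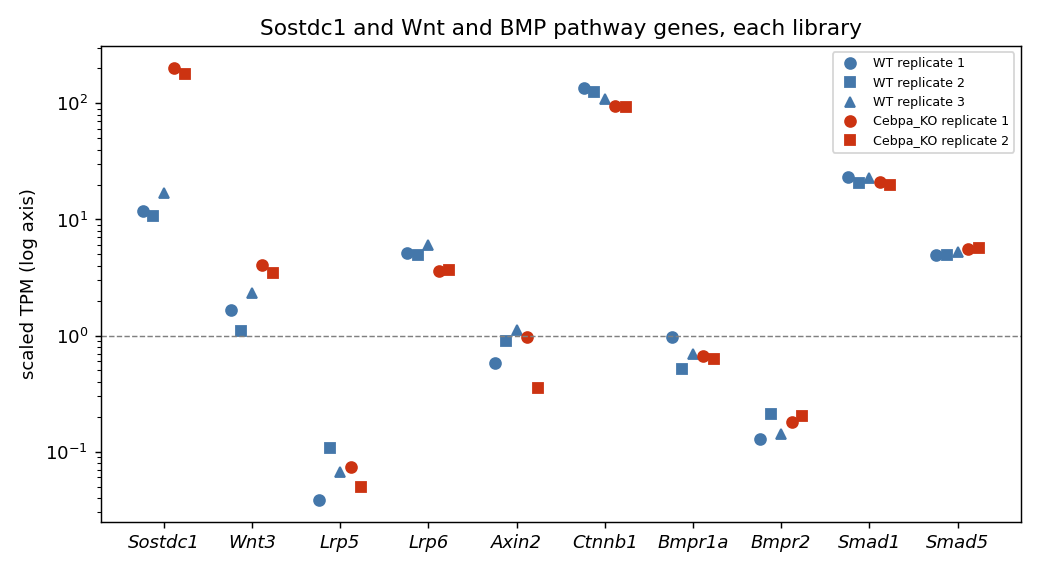
Scaled TPM (log axis) of the 10 genes in each library, blue for the 3 WT and red for the 2 Cebpa_KO libraries, with the dashed line at the filter of 1. Sostdc1 sits at 10.7 to 16.8 in WT against 204 and 181 in Cebpa_KO, whereas Lrp5, Bmpr1a and Bmpr2 lie below 1 in every library.

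Among the 9 other members, the Wnt ligand Wnt3 was higher in the knockout, and Lrp6 and Ctnnb1 were lower, each without overlap between groups, but none passed the test. Of the 9, 5 were tested and 0 passed (limma), and 3 of the 5 had an unadjusted p under 0.05. Over all genes tested, 19.7% passed and 37.6% had an unadjusted p under 0.05. The groups did not overlap in 4 of the 5, against 56.7% of all genes tested. Lrp5, Axin2, Bmpr1a and Bmpr2 were under the filter. The median difference of the 5 was -0.11, and that of all genes tested was 0.01. Nothing is read from these counts, because the set was chosen around this contrast.

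Wnt3 (ENSMUSG00000000125, chromosome 11, 103664976 to 103708783), a ligand of the beta-catenin branch, stood at 1.67, 1.10 and 2.34 in WT against 4.04 and 3.45 in Cebpa_KO. Both knockout libraries were above all WT libraries, by a ratio of means of 2.20. The log2 difference was 0.83 with a 95% interval of 0.25 to 1.42 and did not pass (limma, adjusted p = 0.0612). It was 1.00 without WT replicate 3 and then passed (limma, adjusted p = 0.0270). Without WT replicate 1 or 2 it was 0.84 and 0.66 and did not pass (limma, adjusted p = 0.12 and 0.118). With WT replicate 3 as the reference it was 0.50. Coverage of the gene was low, at 3.37 to 6.59 per base in WT and 12.2 and 10.2 in Cebpa_KO.

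None of the other 18 Wnt ligand genes reached 1 in any library. Of these, 5 were listed at 0 in every library, and the highest single value was 0.568 for Wnt10a. Wnt3 was thus the most abundant listed Wnt ligand in each library. Wls, the carrier that takes Wnt proteins to the surface, was at 80.0, 82.3 and 85.8 in WT against 63.8 and 72.0 in Cebpa_KO, lower in both knockout libraries without passing (difference -0.28; limma, adjusted p = 0.0793). Porcn, which attaches the lipid that Wnt proteins need, was at 0.105 or less in every library. Of the 4 listed secretion genes 3 were tested and 0 passed (limma), with 2 at an unadjusted p under 0.05. The shares over all genes tested were 19.7% and 37.6%.

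Lrp6 (ENSMUSG00000030201, chromosome 6, 134423439 to 134543928), the Wnt co-receptor that Sostdc1 can bind, stood at 5.18, 4.95 and 6.07 in WT against 3.63 and 3.70 in Cebpa_KO. The knockout libraries were close to each other and below all WT libraries. The difference was -0.45 with a 95% interval of -0.82 to -0.09 (limma, adjusted p = 0.0835), which did not pass. Its relative Lrp5 (ENSMUSG00000024913, chromosome 19, 3634828 to 3736564) was near the limit of detection, at 0.0382, 0.107 and 0.0668 in WT against 0.0738 and 0.0499 in Cebpa_KO. Coverage of Lrp5 was 0.327 per base or less, so no difference could be seen at this depth. The assembled loci within the span of Lrp5 held more signal, 0.891 to 1.66 in WT and 0.929 and 1.22 in Cebpa_KO in unscaled TPM, again with overlap. For Lrp6 the assembled loci gave a smaller difference of -0.18 (limma, adjusted p = 0.395). By coverage per base Lrp6 was at 6.84, 9.79 and 9.46 in WT against 7.33 and 7.26 in Cebpa_KO, so on that measure the groups overlapped. In these cells the TPM of Lrp6 was well above that of Lrp5 in every library.

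Of the other 18 Wnt receptor genes listed, 4 were tested and 1 passed, Fzd6, which fell. Over all genes tested, 9.82% fell. Fzd6, a Frizzled receptor, was at 1.95, 2.34 and 2.12 in WT against 0.581 and 0.175 in Cebpa_KO, a fall of 1.20 on the log2 scale (standard error 0.19; limma, adjusted p = 0.0165). It met the filter through its WT values alone. In the assembled loci the difference was -0.26 and did not pass (adjusted p = 0.583). Its adjusted p was 0.0606 without WT replicate 2, 0.0758 without Cebpa_KO replicate 1 and 0.113 without Cebpa_KO replicate 2. With no filter it was 0.0656. The other 3 tested were Rnf43 and Znrf3, ubiquitin ligases that remove Frizzled receptors, and Ryk, a kinase-like Wnt receptor. Znrf3 stood at 2.42, 2.25 and 3.71 in WT against 1.36 and 1.38 in Cebpa_KO, lower in both knockout libraries (difference -0.66; limma, adjusted p = 0.0827). Rnf43 had a difference of -0.49 and Ryk one of 0.32, and neither passed. No Frizzled gene other than Fzd6 met the filter.

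Axin2 (ENSMUSG00000000142, chromosome 11, 108811175 to 108841609), scaffold of the destruction complex and feedback target of beta-catenin, stood at 0.579, 0.902 and 1.11 in WT against 0.967 and 0.353 in Cebpa_KO. Cebpa_KO replicate 1 lay within the WT range and Cebpa_KO replicate 2 below it, and the gene was under the filter. Coverage was 1.04 to 2.15 per base, so a moderate difference was not detectable at this depth. Its assembled loci held more signal, in unscaled TPM. They were at 1.80, 2.17 and 3.71 in WT against 1.22 and 1.97 in Cebpa_KO, with overlap. The list of the destruction complex also holds regulators of it, Dvl1, Dvl2, Dvl3, Tnks and Tnks2. Its genes were expressed, as 15 of 15 listed besides Axin2 were tested. Of these 0 passed (limma), with 2 at an unadjusted p under 0.05, against 19.7% and 37.6% of all genes tested. Their differences ran from -0.62 for Tnks2 to 0.15 with a median of -0.21, against 0.01 for all genes tested. Of the 15, 13 were negative. Axin1, the constitutive scaffold, was at 75.1, 85.3 and 95.3 in WT against 73.5 and 77.1 in Cebpa_KO. The kinase Csnk1a1, with a mean level of 259, had a difference of -0.01.

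Ctnnb1 (ENSMUSG00000006932, chromosome 9, 120758282 to 120789573), beta-catenin itself, was the most abundant WT transcript among the members. It stood at 136, 126 and 110 in WT against 95.8 and 92.9 in Cebpa_KO. The knockout libraries were below all WT libraries, and the lowest WT value, that of replicate 3, was nearest to them. The difference was -0.39 with a 95% interval of -0.66 to -0.11 and did not pass (limma, adjusted p = 0.0616). Without WT replicate 3 it was -0.47 and passed (adjusted p = 0.0179).

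Among the nuclear partners of beta-catenin, members of the Groucho corepressor family and a coactivator fell. Of the other 15 listed, 12 were tested, 3 fell and 0 rose, with a median of -0.23. Over all genes tested, 9.82% fell. Tle5, a short member of the Groucho corepressor family, fell from 833 ± 44.8 to 588 ± 19.4 (difference -0.50; limma, adjusted p = 0.0198), and Tle4, a full-length corepressor, from 23.9 ± 2.44 to 16.0 ± 1.24 (difference -0.55, adjusted p = 0.0378). Bcl9l, a coactivator that binds beta-catenin, fell from 2.89 ± 0.508 to 1.37 ± 0.0799 (difference -0.71; limma, adjusted p = 0.0453). Tcf7, the T cell factor TCF1, was at 699, 707 and 683 in WT against 724 and 676 in Cebpa_KO, with overlapping groups and a difference of 0.01. Lef1 varied among WT libraries more than between groups, at 32.2, 120 and 97.3 in WT against 59.4 and 50.2 in Cebpa_KO. By coverage per base Lef1 was at 32.0, 35.7 and 25.7 in WT against 16.0 and 13.8 in Cebpa_KO, where the groups did not overlap. The calls of Tle4, Tle5 and Bcl9l all ended without either single Cebpa_KO library (adjusted p from 0.131 upwards). All 3 also ended in the assembled loci (0.0525, 0.0572 and 0.112) and with no filter (0.0918, 0.0561 and 0.127). Tle4 and Bcl9l ended against WT replicate 3 alone (0.0591 and 0.0860). Tle4, Tle5 and Bcl9l all ended without WT replicate 2 (limma, adjusted p = 0.0894, 0.0538 and 0.115). Tle4 also ended without WT replicate 1 (0.0608) and Bcl9l without WT replicate 3 (0.0637).

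Among feedback targets of Wnt signalling, Myc and Nkd2 rose. Of the 13 listed besides Axin2, 6 were tested, 2 rose and 0 fell, where 9.93% of all genes tested rose. Myc, a transcription factor of cell growth with many other inputs, rose from 122 ± 13.3 to 231 ± 28.6 (difference 0.91; limma, adjusted p = 0.0128). Nkd2, an inhibitor that binds Dishevelled, was at 0.205, 0.164 and 0.115 in WT against 2.19 and 1.44 in Cebpa_KO (difference 1.27, adjusted p = 0.0128, limma). Nkd2 met the filter only through its knockout values, so its call is no support for a direction of the list. The other 4 were Tcf7, Lef1, Rnf43 and Znrf3, given above. Without WT replicate 2 the adjusted p was 0.0548 for Myc and 0.0532 for Nkd2, and for Myc it was 0.101 and 0.0767 without Cebpa_KO replicates 1 and 2. Nkd2 was below the filter without either Cebpa_KO library. Against WT replicate 3 alone the adjusted p was 0.0648 for Myc and 0.0716 for Nkd2, and with no filter it was 0.0549 for Myc.

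**Figure D2:**
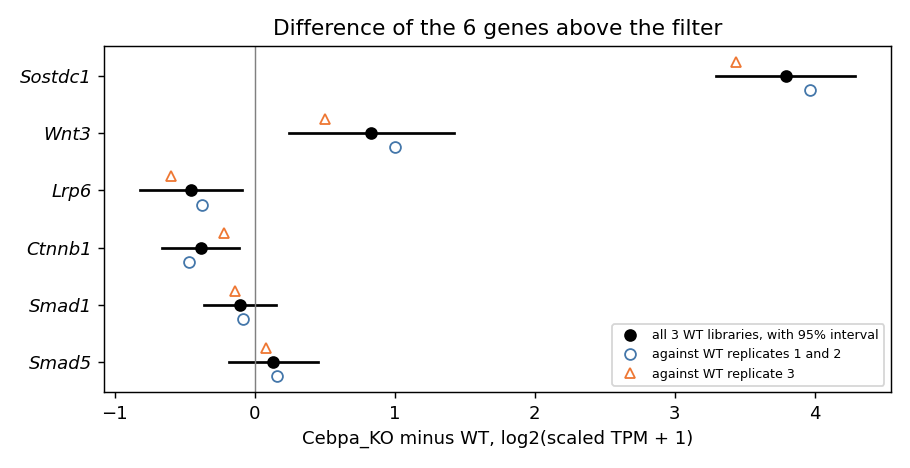
Cebpa_KO minus WT on the log2(scaled TPM + 1) scale for the 6 genes above the filter, as black points with 95% intervals from limma, blue circles against WT replicates 1 and 2 and orange triangles against WT replicate 3. Sostdc1 lies at 3.79 and Wnt3 at 0.83, while Lrp6 and Ctnnb1 lie at -0.45 and -0.39 and the intervals of Smad1 and Smad5 include 0. The interval of Sostdc1 is a description and no test, because the gene was chosen by these values.

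On the BMP side, the receptors among the members were under the filter and neither Smad1 nor Smad5 passed the test. Bmpr1a (ENSMUSG00000021796, chromosome 14, 34132691 to 34225298), a type I receptor kinase, stood at 0.978, 0.513 and 0.691 in WT against 0.672 and 0.622 in Cebpa_KO. Bmpr2 (ENSMUSG00000067336, chromosome 1, 59802559 to 59918173), the type II kinase, stood at 0.128, 0.209 and 0.141 in WT against 0.180 and 0.202 in Cebpa_KO. Both genes had overlapping groups in these values and were under the filter. In the assembled loci Bmpr1a was at 1.13, 1.60 and 2.19 in WT against 0.791 and 0.728 in Cebpa_KO in unscaled TPM. On that measure the groups did not overlap. Assembled loci of Bmpr2 were at 0.0146, 0.764 and 0 in WT against 0.919 and 0.469 in Cebpa_KO, with overlap. No member other than Sostdc1 passed in the assembled loci (limma). Coverage of Bmpr2 was 0.531 per base or less. Of the other 9 receptor genes listed, 2 were tested, Acvr2a, an activin and BMP type II receptor, and Rgmb, a BMP co-receptor. Neither passed (limma), and 0 of the 2 had an unadjusted p under 0.05, against 19.7% and 37.6% of all genes tested. Their mean levels in WT were 1.17 ± 0.174 and 0.976 ± 0.105.

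Smad1 (ENSMUSG00000031681, chromosome 8, 80065024 to 80126147), a transducer of BMP receptors, stood at 23.1, 20.7 and 22.8 in WT against 21.1 and 20.0 in Cebpa_KO. The groups overlapped, and the difference was -0.11 with a 95% interval of -0.36 to 0.15 (limma, adjusted p = 0.489). Smad5 (ENSMUSG00000021540, chromosome 13, 56850823 to 56890190), its close relative, stood at 4.92, 4.90 and 5.24 in WT against 5.55 and 5.65 in Cebpa_KO. Both knockout libraries were slightly above the WT libraries, with a difference of 0.13 and a 95% interval of -0.18 to 0.45 (limma, adjusted p = 0.481). A difference of 1 on this scale lies outside both intervals. By mean level per length, the members with a WT mean above 1 ran Ctnnb1, Smad1, Sostdc1, Lrp6, Smad5 and Wnt3 in WT. In Cebpa_KO Sostdc1 came first, and Wnt3 and Lrp6 overlapped. Lrp6 and Smad5 were neighbours in the WT order whose ranges overlapped.

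Of the other 9 Smad and Smurf genes listed, 7 were tested and 0 passed (limma), with 3 at an unadjusted p under 0.05 and a median of 0.05. Over all genes tested, 19.7% passed, 37.6% had an unadjusted p under 0.05 and the median was 0.01. Smad4, the partner shared by BMP and TGF-beta signals, stood at 69.3, 66.9 and 73.5 in WT against 64.3 and 67.8 in Cebpa_KO. Smad2 and Smad3 transduce TGF-beta and activin. Smad2 was higher in both knockout libraries (difference 0.66; limma, adjusted p = 0.0668) and Smad3 lower (difference -0.76, adjusted p = 0.0608), and neither passed.

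Among BMP ligands, 1 of 14 was tested. Bmp7 stood at 58.2, 52.8 and 50.9 in WT against 47.6 and 41.5 in Cebpa_KO, lower in both knockout libraries without passing (difference -0.27; limma, adjusted p = 0.126). The other 13 ligand genes were below 1 in every library, with Bmp8a the highest at 0.270.

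Of 8 listed targets of BMP signals, 5 were tested, 1 rose and 1 fell, against 9.93% and 9.82% of all genes tested. Id3, an inhibitor of E protein transcription factors, fell from 283 ± 19.0 to 92.4 ± 15.6 (difference -1.61; limma, adjusted p = 0.0055). It passed in each alternative run except without Cebpa_KO replicate 2, at 0.0653. Id1, of the same family, was at 0.181, 0.112 and 0.835 in WT against 1.64 and 2.24 in Cebpa_KO (difference 1.12, adjusted p = 0.0437, limma), and met the filter only through its knockout values, so its call is no support for a direction of the list. Without WT replicate 1 or 2 its adjusted p was 0.101 and 0.112. The call also ended with a pseudocount of 0.1 (0.0736), with no filter (0.144), in the assembled loci (0.0713) and against WT replicate 3 alone (0.154). Id2 stood at 58.4, 63.0 and 143 in WT against 205 and 288 in Cebpa_KO, higher in both knockout libraries without passing (difference 1.58, adjusted p = 0.0536, limma), and WT replicate 3 lay between the other WT libraries and the knockout libraries. Smad7, an inhibitory SMAD, had overlapping groups.

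Sostdc1 was the secreted Wnt antagonist with a measured level above 1 in these cells. The other 12 listed, which include the Dkk and Sfrp genes, Wif1 and Sost, the closest relative of Sostdc1, did not reach 1 in any library. The highest was Dkk3 at 0.594, and 3 were at 0 throughout. Of the 14 other secreted BMP antagonists listed, 3 were tested and 1 fell, where 9.82% of all genes tested fell. Nbl1, a DAN family antagonist, fell from 2.75 ± 0.229 to 1.38 ± 0.174 (difference -0.66; limma, adjusted p = 0.0379). Twsg1, a BMP binding protein that acts with chordin, stood at 124, 117 and 120 in WT against 132 and 134 in Cebpa_KO (difference 0.15, adjusted p = 0.201, limma), and Dand5 had a difference of -0.56 and did not pass. The call of Nbl1 ended without any single library other than WT replicate 3, at adjusted p of 0.0781 to 0.221. It also ended in the assembled loci (0.0530), with no filter (0.0996) and against WT replicate 3 alone (0.154).

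Over the 138 pathway genes listed besides the members, 52 were tested, 3 rose and 6 fell, against 9.93% and 9.82% of all genes tested. Among these calls, Nkd2 and Id1 met the filter only through their knockout values, and Fzd6 only through its WT values. The counts are therefore no support for a direction of the lists. Their median difference was -0.17, against 0.01 for all genes tested. Of the 138, 85 were below 1 in every library and 17 of these were at 0 throughout.

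**Figure D3:**
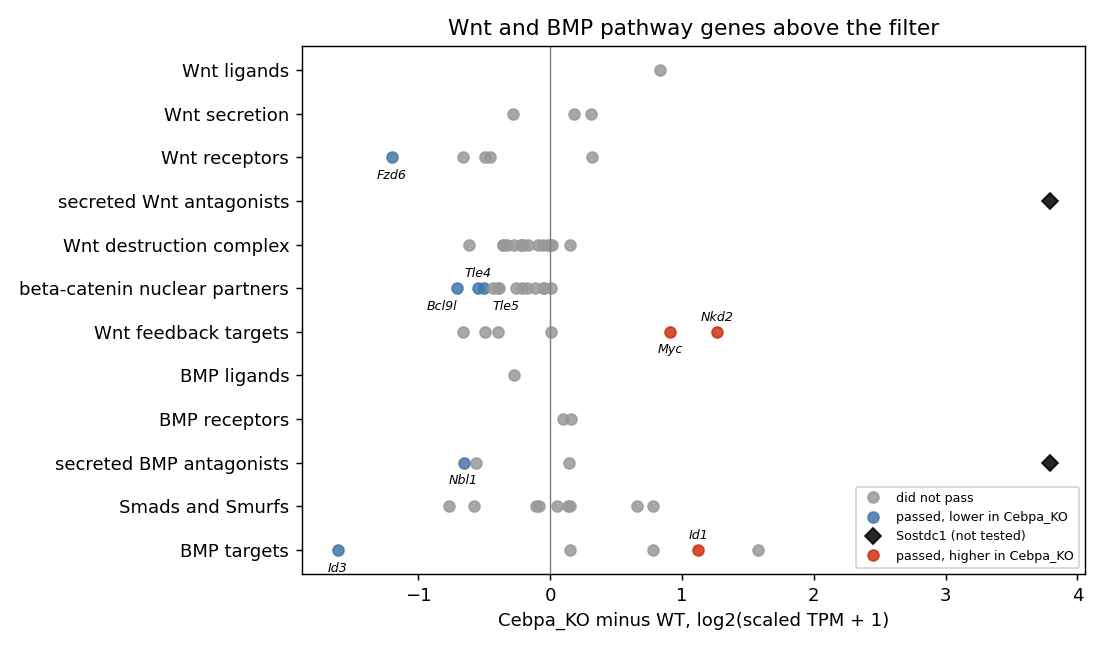
Cebpa_KO minus WT on the log2(scaled TPM + 1) scale for tested genes of each pathway list (rows), coloured by the limma call, with Sostdc1 as an untested diamond in both antagonist rows. Sostdc1 at 3.79 lies beyond all other pathway genes, whose differences run from -1.61 for Id3 to 1.58 for Id2.

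The 5 genes whose profile over the 5 libraries was nearest to that of Sostdc1 were ranked by root mean square distance of log2 values centred on each gene's mean, among 10869 named genes. Xist, which coats and silences the inactive X, was the nearest at 0.23, and Tsix, which overlaps it on the other strand, came next at 0.24. They were followed by Npnt, an integrin ligand of the matrix, at 0.30, Lad1, a basement membrane filament protein, at 0.32 and Cd109, a surface protein that binds TGF-beta, at 0.44. Npnt was at 0.615, 1.02 and 1.20 in WT against 17.5 and 19.5 in Cebpa_KO. Lad1 was at 0.315, 0.877 and 2.33 in WT against 26.4 and 19.7 in Cebpa_KO. Each of the 5 was thus low in all WT libraries and high in both knockout libraries. That follows from the ranking, because Sostdc1 was chosen as higher in the knockout. Xist, Tsix and Cd109 were below 1 in all WT libraries and met the filter only through their knockout values. Nothing beyond a shared profile over 5 libraries was measured.

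Sostdc1 has known sources outside regulatory T cells, so markers were set beside it. All 12 fibroblastic stromal markers, such as Pdpn, Ccl19, Pdgfra and Col3a1, were below 1 in every library, with Lum at 0 throughout. Their sum was 0.201 to 0.580 in WT and 0.926 and 0.589 in Cebpa_KO. Of 6 endothelial markers, 5 were below 1 throughout, and Pecam1, which T cells also express, fell. B cell markers, 8 genes, summed to 70.7 to 125 in WT against 248 and 54.9 in Cebpa_KO. The 10 myeloid markers summed to 41.2 to 145 in WT against 311 and 73.5 in Cebpa_KO, and the sums of 8 plasma cell markers overlapped as well. No B cell or myeloid marker passed among 7 tested in each list (limma, with 0 and 1 at an unadjusted p under 0.05). The shares over all genes tested were 19.7% passing and 37.6% with an unadjusted p under 0.05. Ighg1 rose among 7 tested plasma cell markers, where 9.93% of all genes tested rose. Its scaled TPM was 0.254, 0.205 and 3.09 in WT against 288 and 111 in Cebpa_KO. Without the knockout values it would not have met the filter.

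Follicular helper markers, most of which Tfr cells share, did not move together. Of 12 genes 2 rose and 4 fell, where 9.93% of all genes tested rose and 9.82% fell. Il21, the cytokine by which helper cells drive B cells, stood at 14.7, 10.4 and 12.9 in WT against 56.2 and 50.4 in Cebpa_KO, and Tnfsf8, the ligand of CD30, was the other rise. The 4 that fell were Bcl6, Cxcr5, Icos and Sh2d1a, with differences of -0.85, -0.78, -0.71 and -0.79. The sum of the 12 was 1956 to 2139 in WT and 1649 and 1663 in Cebpa_KO. Of 10 regulatory T cell markers 5 fell, Foxp3, Il2ra, Ctla4, Lrrc32 and Gpr83, and 0 rose. Of 8 general T cell markers 5 fell and 0 rose, and 1 of the 10 stress genes, Atf3, rose. In bulk RNA a different share of cells and a different level per cell cannot be told apart, and the part of the helper, regulatory and stress genes in the Sostdc1 values was not tested.

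**Figure D4:**
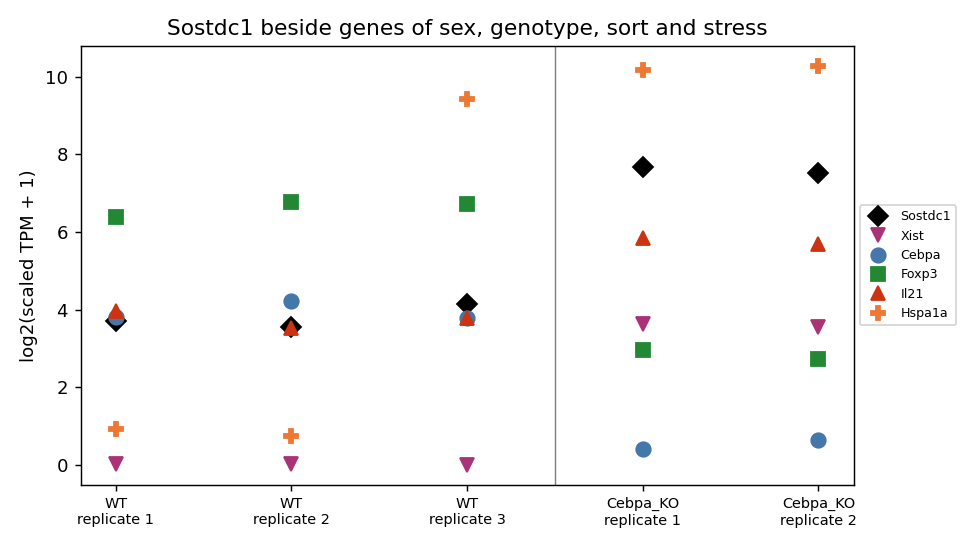
Level in log2(scaled TPM + 1) of Sostdc1, Xist, Cebpa, Foxp3, Il21 and Hspa1a in each library, with a line between the WT and Cebpa_KO libraries. Sostdc1, Xist and Il21 are high in both Cebpa_KO libraries and low in all WT libraries, Cebpa and Foxp3 the reverse, and the heat shock gene Hspa1a is high in WT replicate 3 (690) as well as in Cebpa_KO. Il21 is among the 2 helper markers that rose, while 4 of the 12 listed fell.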

How the data were processed

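RNA-seq of sorted mouse Tfr cells was analysed in 3 WT and 2 Cebpa_KO libraries, each pooled from several mice, and p-values reflect pool-to-pool spread. STAR 2.7.11b, StringTie 2.1.3b and the mm39 build are listed in the submitters' processing notes. For the annotation release and strandedness nothing is given in the sources used here. Per the file headers, the authors deposited coverage, FPKM and TPM for each gene. TPM as deposited is treated as a score, because annotated genes repeat 96.7% to 97.6% of the signal of assembled loci in the same column. FPKM deposited by the authors served with their coverage signal to give the aligned depth. No read counts are given, so no counting interval was computed.

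TPM rows of a gene ID were summed and libraries scaled by median ratios to a geometric-mean reference (factors 0.984 to 1.04). limma 3.58.1 in R 4.3.3 was fitted on log2(scaled TPM + 1) (trend option, Benjamini-Hochberg over all genes tested), and checked on simulated data. The members and lists were chosen with earlier results of these data known. Named were the members, list genes that passed, up to 3 most abundant per list, and the neighbours and 5 nearest profiles of Sostdc1, without gene models (unless neighbours), pseudogenes or receptor segments. Other genes were named after their values were seen. Some neighbours of Sostdc1 are not reported here. GENCODE M21 gave gene types by ID for 51880 of 57186 genes. pandas 2.3.3 handled tables and matplotlib 3.10.9 the plots.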

Additional observations from a re-analysis of the deposited data

How the results depend on the processing

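The number of genes passing was 3210 of 16254, and it changed to 1559 with no filter, 5015 with array weights and 1661 with WT represented by replicate 3 alone, and lay between 23 and 4002 with each library left out. The lowest count, 23, came without Cebpa_KO replicate 2. Of the members other than Sostdc1, 0 passed with all libraries, 1 with a pseudocount of 5 (Wnt3), 2 with array weights (Wnt3 and Ctnnb1), and 0 to 2 with each library left out. Of the 52 tested pathway genes 9 passed, against 3 with no filter, 16 with array weights, 5 in the assembled loci, 5 with WT represented by replicate 3 alone and 0 to 12 with each library left out. The number tested changed too. With no filter it was 38302 genes, 121 of them pathway genes, and in the assembled loci 15950 and 56. The cause of the changes in calls was not tested. In the fits that leave some libraries out, fewer libraries and the choice of library cannot be told apart. The difference of Sostdc1 lay between 3.43 and 3.97 over 17 alternatives. The differences of the 6 members above the filter kept their sign in the alternatives run. The other 4 members were not in the main fit. With no filter 9 members other than Sostdc1 were fitted and 0 passed. In the assembled loci 8 were fitted and 0 passed. Without a library of Cebpa_KO the remaining one is assumed to vary like WT.

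With a replicate block, for the numbers 1 and 2 that both groups carry, 2409 genes, 8 pathway genes and 2 members (Wnt3 and Ctnnb1, adjusted p = 0.0445 and 0.0446, limma) passed, while Fzd6, Tle4, Bcl9l and Nbl1 did not (0.0506, 0.0791, 0.105 and 0.0742). The numbers do not pair the samples by any label, and deviations of same-numbered libraries correlated at -0.18 and 0.27 across genes. Assembled loci carry no gene name, so they were matched by position and strand. That match and the fit with WT represented by replicate 3 alone were chosen after seeing the data. Depth limits Lrp5, Bmpr1a, Bmpr2 and Axin2, whose annotated TPM was near or under 1.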
